A study of Mus musculus with 12 samples.

Results

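The anterior Hoxa genes are Hoxa2, Hoxa3, Hoxa4, Hoxa5, Hoxa6 and Hoxa7, 6 of the 21738 protein-coding genes of the GENCODE mouse annotation, and they are described here by where ubiquitinated histone H2A was called over them. They were chosen by name, and peaks were assigned to them where a peak touched the promoter (2 kb on each side of the canonical start) or the gene body. The study profiled c-Kit+ cells of mouse bone marrow, labelled as haematopoietic stem and progenitor cells, to learn how truncation of ASXL1 and changes to its condensation bear on H2AK119ub and on the chromatin occupancy of BAP1 and of ASXL1 itself. H2AK119ub, histone H2A carrying ubiquitin on a lysine of its tail, was profiled with CUT&RUN, which cuts marked chromatin free with an antibody-guided nuclease. ChIP-seq of BAP1 and of ASXL1 used an HA tag per the labels' protocols, although the labels' descriptions name antibodies to the proteins themselves.

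All 12 libraries came from cells that carried a retrovirus for BAP1, the control cells included, so no library shows cells without added BAP1. The 1-590 set held 4 H2AK119ub libraries: cells with empty vector, cells with ASXL1 (1-590), and cells with either of its mutant forms, 10RA (condensation-impaired per the labels) or 25RA (condensation-defective). The 1-1067 set held another 4: its own empty vector, ASXL1 (1-1067), and the charge-neutralized forms of the latter, 34DN and 36EQ. The other 4 libraries were ChIP-seq of BAP1 and of ASXL1, each with 1-590 and with 10RA. The genotype in the labels is mock, and the labels give no strain, age or time after transduction. Each condition had 1 library, so no difference below has a replicate check, and counts and levels are given with no test. For 25RA, 34DN and 36EQ the codes in the peak names differ from the titles, by which values are assigned here. The deposited data are peak lists, so a place with no listed peak has no value, and RNA was not measured.

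Hox genes encode homeodomain transcription factors that give cells along the body axis their regional identity, and within a cluster the genes lie in the order in which they are used from head to tail. Polycomb repressive complex 1 puts ubiquitin on H2A at silent Hox genes, and the deubiquitinase BAP1, with ASXL1 as its cofactor, takes it off. In blood, early stem and progenitor cells transcribe Hoxa genes and lower them as they differentiate, and high Hoxa expression is a familiar feature of myeloid leukaemias.

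All 6 genes lie on the minus strand of chromosome 6 (GRCm39). Hoxa2, at chr6:52138599-52141811, patterns the hindbrain and the second pharyngeal arch. Hoxa3, at chr6:52146041-52190316, is needed for thymus and parathyroid and is the longest of the 6, with 44276 bases and 5 annotated coding starts. Its body contains Hoxa4 (chr6:52166651-52168733), Hoxa5 (chr6:52178734-52181567) and Hoxa6 (chr6:52183268-52185702), so 1 peak can lie in the body of more than 1 gene. Hoxa4 and Hoxa6 pattern the axial skeleton, and Hoxa5 also acts in lung development. Hoxa7, at chr6:52191471-52198834, borders the posterior genes Hoxa9, Hoxa10, Hoxa11 and Hoxa13.

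The 8 H2AK119ub libraries listed 17 peaks over this 60.2 kb interval, at 11 separate sites, and 5 of the sites carry the findings below. The first, just past the 3' end of Hoxa4, was the single site listed in 4 libraries. The Hoxa3 and Hoxa7 sites were each listed in 2 libraries and had the highest broad levels. The Hoxa2 and Hoxa6 sites were each listed with 1 mutant form only. Each sequence is the GRCm39 plus strand, 5' to 3', with CpG dinucleotides in capitals. The lines cover chr6:52166288-52166526, chr6:52188978-52189220, chr6:52197128-52197302, chr6:52141251-52141481 and chr6:52186650-52186880, in that order, and for a site in several libraries the stretch shared by the 1-590 set is given. For Hoxa7, 49 bases of untranslated region are left out.
Hoxa4 3-prime site: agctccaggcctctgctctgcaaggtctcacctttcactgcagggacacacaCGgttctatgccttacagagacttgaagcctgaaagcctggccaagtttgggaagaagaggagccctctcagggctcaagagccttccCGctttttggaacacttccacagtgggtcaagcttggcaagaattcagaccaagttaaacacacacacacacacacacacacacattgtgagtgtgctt
Hoxa3 long-form site: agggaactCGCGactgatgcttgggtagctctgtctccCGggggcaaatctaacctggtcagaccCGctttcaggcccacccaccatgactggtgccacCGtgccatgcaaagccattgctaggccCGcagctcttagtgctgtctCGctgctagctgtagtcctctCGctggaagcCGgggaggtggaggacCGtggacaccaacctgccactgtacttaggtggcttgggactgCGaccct
Hoxa7 site: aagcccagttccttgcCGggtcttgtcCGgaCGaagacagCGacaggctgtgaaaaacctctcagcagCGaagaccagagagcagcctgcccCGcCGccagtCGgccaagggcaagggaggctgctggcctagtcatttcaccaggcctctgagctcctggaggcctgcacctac
Hoxa2 exon site: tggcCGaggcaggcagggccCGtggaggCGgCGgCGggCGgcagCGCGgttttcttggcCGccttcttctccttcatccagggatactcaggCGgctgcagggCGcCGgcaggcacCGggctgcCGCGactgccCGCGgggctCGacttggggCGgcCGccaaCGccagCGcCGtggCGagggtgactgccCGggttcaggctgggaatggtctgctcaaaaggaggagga
Hoxa6 upstream site: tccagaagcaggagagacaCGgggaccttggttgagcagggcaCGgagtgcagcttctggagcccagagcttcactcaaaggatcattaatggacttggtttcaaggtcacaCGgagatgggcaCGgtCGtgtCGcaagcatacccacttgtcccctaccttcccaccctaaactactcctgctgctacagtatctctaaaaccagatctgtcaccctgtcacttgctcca
The Hoxa2 stretch lies in the first coding exon and holds 25 CpGs in 231 bases. The Hoxa4 stretch, of 239 bases, holds 2 CpGs and a run of alternating A and C near its end, the full run being 27 bases long.

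Whole fragment numbers at each summit (summit pileup) and the local background on which the caller judged it were recovered from every deposited peak. The lowest background in a library, called genome background here, ranks the libraries by depth. It was 0.908 fragments per base for vector in the 1-590 set, 2.06 for 1-590, 1.72 for 10RA and 1.86 for 25RA. In the 1-1067 set it was 2.92 for vector, 2.17 for 1-1067, 2.59 for 34DN and 2.84 for 36EQ. Vector was thus the shallowest library of the 1-590 set, while 1-1067 was the shallowest of its own. Over all genes, 40.5% had a promoter peak in vector, 55.2% with 1-590, 41.3% with 10RA and 47.8% with 25RA, against 7.44%, 9.21%, 6.96% and 8.52% for vector, 1-1067, 34DN and 36EQ in the 1-1067 set. Kit, Cd34 and Flt3, marker genes of progenitors, were each listed at the promoter in every library of the 1-590 set. Across that set promoters were listed at 0 to 1 of 5 myeloid, 0 to 3 of 4 lymphoid, 1 to 2 of 3 erythroid and 2 to 3 of 5 stromal or endothelial marker genes. Peaks show the mark and not expression, so these lists cannot check the cell type.

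Of the 24 combinations of gene and library in the 1-590 set, 6 had a promoter peak, against 2 of 24 in the 1-1067 set and 0 of 24 in the ChIP lists. Body peaks numbered 8, 3 and 0 of 24. The shares of all promoters given above ran from 40.5% to 55.2% in the 1-590 set and from 6.96% to 9.21% in the 1-1067 set, and the counts are set beside them library by library below. Hoxa3 and Hoxa4 each had a promoter peak in 3 of the 8 H2AK119ub libraries, Hoxa2 and Hoxa6 in 1, and Hoxa5 and Hoxa7 in 0. In the gene body, Hoxa3 was marked in 5 of the 8, Hoxa4 in 3, Hoxa7 in 2 and Hoxa2 in 1.

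**Figure D1:**
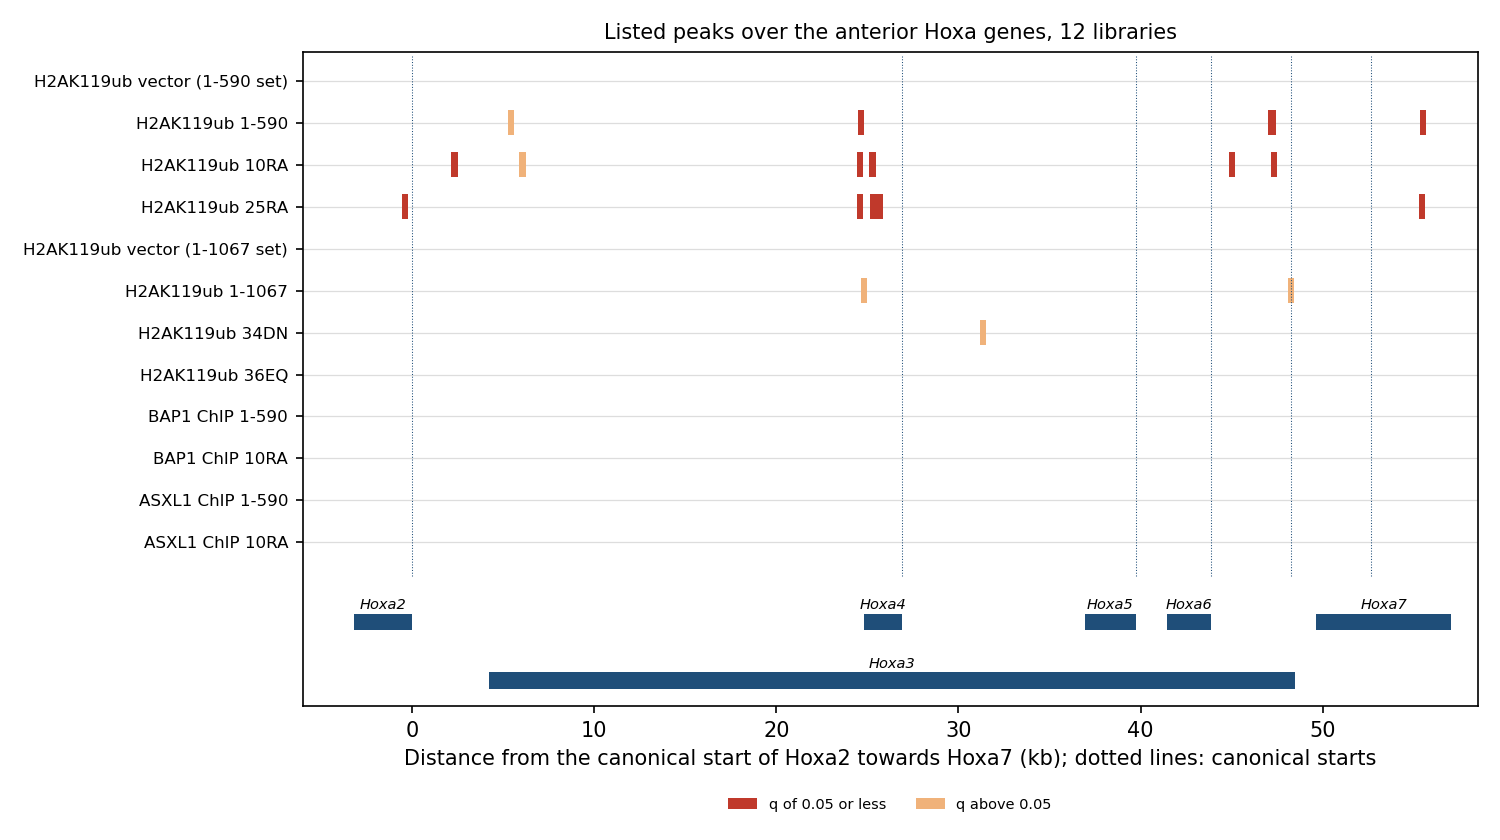
Position of every listed peak (red blocks with q of 0.05 or less, orange with q above 0.05, short peaks widened to be visible) over the anterior Hoxa genes in the 12 libraries; the x axis is distance in kb from the canonical start of Hoxa2, dotted lines mark canonical starts, and the lower bars are the genes. Of the 17 H2AK119ub peaks, 14 are in the 1-590 set, and both vectors, 36EQ and the ChIP libraries have 0.

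**Figure D2:**
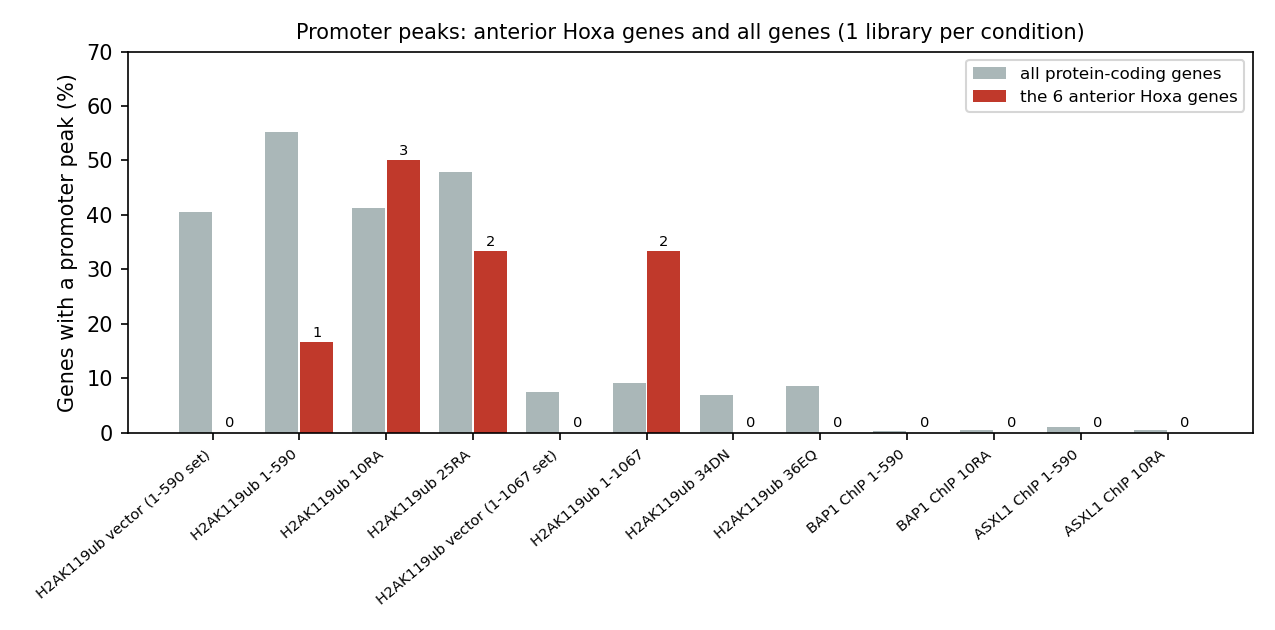
Percent of genes with a promoter peak in each library (1 library per condition), for all protein-coding genes (grey) and for the 6 anterior Hoxa genes (red, with the number of genes above the bar). In the 1-590 set the numbers are 0 with vector, 1 with 1-590, 3 with 10RA and 2 with 25RA. Beside them, 40.5%, 55.2%, 41.3% and 47.8% of all genes have a promoter peak. With 1-1067 the number is 2, beside 9.21% of all genes. At q of 0.05 or less it is 0, beside 4.38%. Whether the 6 genes depart from these shares was not tested.

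The first comparison asked whether ASXL1 (1-590) changed the mark relative to vector. Vector listed 0 of the 6 promoters, where 40.5% of all promoters were listed, and 1-590 listed 1, that of Hoxa3, where 55.2% were. The count of 1 became 4 with promoters of 5 kb, 2 with all coding starts and an expected 0.606 at the depth of vector. A peak with 1-590 and none in vector was found at 17.8% of all promoters, and the reverse at 3.03%. None of the 6 showed the reverse, and 20.8% of all promoters were listed in only one of the libraries. In gene bodies, 1-590 marked 2 of the 6 (Hoxa3 and Hoxa7) and vector 0, against 62.3% and 48.7% of all genes. The nearest vector peak to a start of these genes was 35271 bp from that of Hoxa7, beyond the anterior interval.

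Depth moves with this difference. If each 1-590 fragment had been kept with the chance that matches the vector's genome background, 1.82 of the 4 anterior peaks of 1-590 would be expected to stay listed. For 10RA that number was 3.09 of 6 peaks and for 25RA 3.20 of 4. The part of depth in the empty vector list was not tested further.

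With 10RA, 3 of the 6 promoters had a peak (Hoxa3, Hoxa4 and Hoxa6), beside 41.3% of all promoters, and an expected 1.61 of these would stay listed at the depth of vector. A peak with 10RA and none with 1-590 was found at 2 of the 6, Hoxa4 and Hoxa6, and at 4.53% of all promoters; with promoters of 1 kb the 2 became 1. The reverse was found at 0 of the 6 and at 18.4% of all promoters, and 22.9% were listed in only one of these libraries. Against vector, 10RA alone had a peak at 3 of the 6 and at 11.1% of all promoters, and vector alone at 0 of the 6 and at 10.2%. Its body peaks marked 2 of the 6, Hoxa3 and Hoxa4, against 52.3% of all genes.

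With 25RA, 2 of the 6 promoters had a peak (Hoxa2 and Hoxa4), beside 47.8% of all promoters, and 1 (Hoxa2) with promoters of 1 kb. A peak with 25RA and none with 1-590 was found at these 2 genes and at 5.53% of all promoters. The reverse was found at Hoxa3 and at 12.9% of all promoters, and 18.4% were listed in only one of these libraries. Against vector, 25RA alone had a peak at 2 of the 6 and at 14% of all promoters, and vector alone at 0 of the 6 and at 6.59%. In gene bodies 25RA marked 4 of the 6 (Hoxa2, Hoxa3, Hoxa4 and Hoxa7), against 58.3% of all genes. Between the mutant forms, Hoxa4 was listed in both, Hoxa2 with 25RA only, and Hoxa3 and Hoxa6 with 10RA only. Peaks in 25RA and not 10RA, and in 10RA and not 25RA, were found at 13.8% and 7.31% of all promoters. With 1 library each, these differences cannot be told apart from variation between libraries. Several of these listings also rest on a peak within 5 fragments of the number needed.

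Hoxa2 was listed only with 25RA. The peak covered chr6:52141251-52141481, in the first coding exon, with its summit 433 bp inside the gene. It had a summit pileup of 19 fragments on a local background of 5.27, where 14 would have sufficed, and a fold of 3.19 in the authors' list. In 10RA the nearest peak lay 2159 bp upstream of the start, at chr6:52143970-52144169 in the noncoding gene Hoxaas2, with 14 fragments where 12 were needed. In 1-590 the nearest was 5270 bp away, and in vector 59376 bp.

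Hoxa3 was listed at its canonical, long-form start with 1-590, 10RA and 1-1067. With 1-590 the peak at chr6:52188799-52189220, in an intron, had 51 fragments on a background of 23.8. With 10RA the overlapping peak at chr6:52188978-52189250 had 28 fragments on 12.9. Both summits lay inside the gene, 1015 and 921 bp from the start. With 1-1067 the peak at chr6:52189899-52190215 had 21 fragments on 8.83, with a q above 0.05, and its summit was 86 bp upstream. It was the only one of the 17 peaks that covered a canonical start of these genes. The 3 coding starts of the shorter Hoxa3 forms, 29260 to 37250 bp inside the gene, had no peak within 2 kb in any of the 12 libraries. Low peaks with a q above 0.05 lay in Hoxa3 coding sequence near the 3' end, 1 with 1-590 (21 fragments, 20 needed) and 1 with 10RA (12 fragments, 11 needed). With 34DN the single anterior peak, at chr6:52172988-52173209 between Hoxa4 and Hoxa5, had 15 fragments and a q above 0.05.

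Hoxa4 was listed with 10RA, 25RA and 1-1067, and not with 1-590. The 10RA peak at chr6:52166914-52167139 had 20 fragments on a background of 6.11, and the 25RA peak at chr6:52166952-52167652 had 23 on 6.94. Both lay in the 3' part of this short gene, with summits 1678 and 1162 bp inside it, so they are promoter peaks only by the 2 kb window. The 1-1067 peak reached 31 bases into that window, with its summit outside. Just past the gene's 3' end lay the site listed in 4 libraries, with 28 fragments with 1-590, 21 with 10RA, 24 with 25RA and 18 with 1-1067. All 4 peaks shared chr6:52166455-52166526, and the merged site overlapped the noncoding genes Gm28308, Gm29430 and Hoxaas3 and lay in the Hoxa3 body. The 1-590 peak ended 2191 bp from the Hoxa4 start, which left it outside the promoter. Of the 32-base words of the merged site 97.7% occurred once in the genome, the rest up to 164 times, whereas all words of the other 10 sites occurred once.

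Hoxa5 had no promoter or body peak in any of the 12 libraries. Its nearest H2AK119ub peak lay 5083 bp from its start, with 10RA. The CpG observed to expected ratio over 1001 bases around its start was 0.996, above that of 98% of genes and highest among the 6. Hoxa4 followed with 0.919 and Hoxa7 with 0.812, and Hoxa2, Hoxa6 and Hoxa3 had 0.689, 0.633 and 0.629, against a median of 0.575. Hoxa5 and Hoxa7 had no promoter peak, Hoxa4 and Hoxa3 each had one in 3 libraries, and Hoxa2 and Hoxa6 in 1. Most promoter-peak summits lay outside these 1001 bases, such as 1678 and 1162 bp inside Hoxa4 and 970 bp upstream of Hoxa6. The ratio thus mostly describes sequence away from the peaks, and its relation to the listings was not tested.

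Hoxa6 was listed only with 10RA, at chr6:52186650-52186880, 948 bp upstream of its start. The summit had 26 fragments on a background of 10.5, where 22 were needed. With 1-590 the nearest peak to the Hoxa6 start was 3097 bp away, and with 25RA 11376 bp.

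Hoxa7 had no peak within 2 kb of its canonical start, while the site printed above lay in its annotated body with 1-590 and 25RA. The 1-590 peak at chr6:52197128-52197353 had 56 fragments on a background of 25.9, where 43 were needed. The 25RA peak at chr6:52197078-52197351 had 49 fragments on 15.4, where 29 were needed, and a fold of 3.06 in the authors' list. Their summits were 2721 and 2742 bp upstream of the canonical start, 21 bp apart, within 2 kb of upstream coding starts 1211 and 4349 bp from the canonical one. These were the highest pileups over the anterior genes in either library. At the vector's depth the 25RA peak would be expected to stay listed with a chance of 98.4% and the 1-590 peak with a chance of 72.0%.

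**Figure D3:**
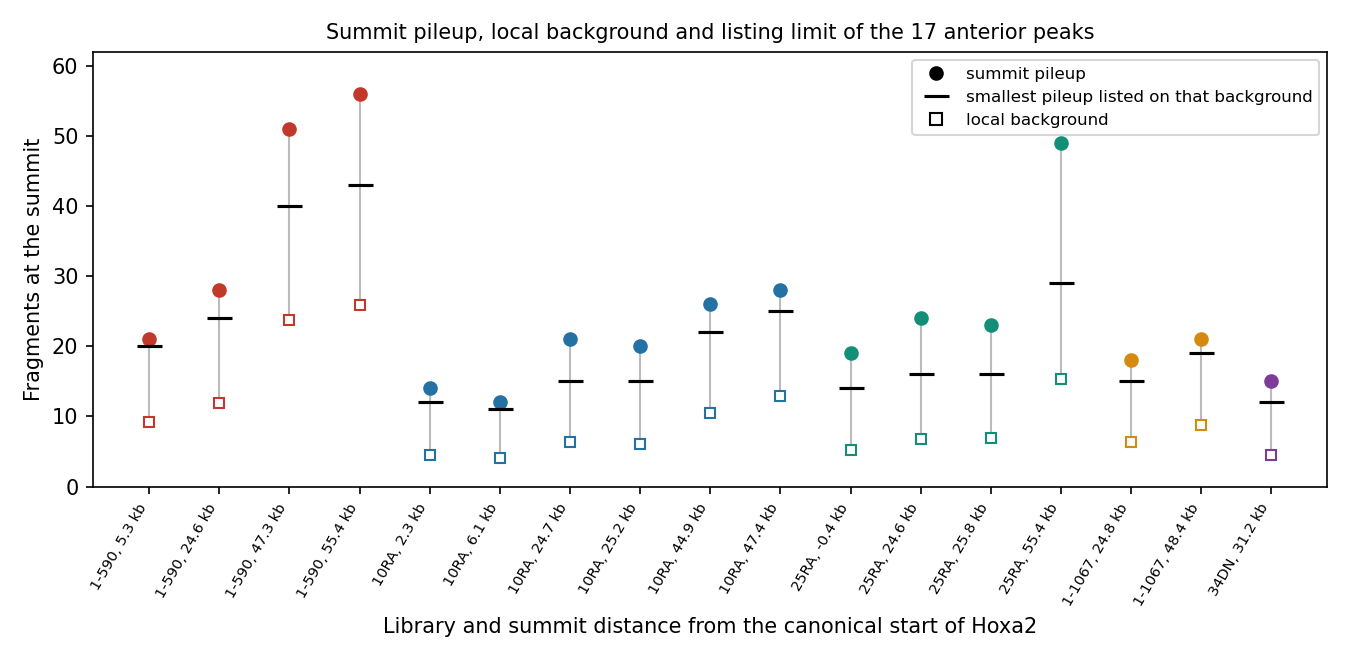
Summit pileup (filled circles), local background (open squares) and the smallest pileup that would have been listed on that background at p of 0.001 (black bars), in fragments, for each of the 17 anterior peaks, ordered by library and by distance from the Hoxa2 start. The margin over the needed number runs from 1 fragment (1-590 at 21 against 20) to 20 (25RA at Hoxa7, 49 against 29).

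Summit pileup and local background were both higher towards the Hoxa7 end than near Hoxa2 with 1-590, 10RA and 25RA. Dividing the local background by the genome background gives the broad level around a peak, and dividing the pileup gives the summit level. Both are multiples of the same library's own genome background. A change of the mark over the whole genome would therefore not show in either level. The sources used here do not say whether the caller was given a control library: without one the local background is H2AK119ub signal of the same library, and with one it would be control signal, so the broad levels and their ratios below have that limit, while the summit pileup is the library's own in either case. The summit level was 10.2, 13.6, 24.8 and 27.2 at the 4 anterior peaks of 1-590 in order from Hoxa2 to Hoxa7. For the 1-590 set, the Hoxa3 start means from here on the long-form site printed above, which lies inside the gene. With 1-590 the broad level was 4.50 in the 3' part of Hoxa3, 5.76 at the Hoxa4 site, 11.5 at the Hoxa3 start and 12.6 at Hoxa7. With 10RA it was 2.59 upstream of Hoxa2, 2.33 in the 3' part of Hoxa3, 3.67 at the Hoxa4 site, 6.09 at Hoxa6 and 7.50 at the Hoxa3 start. With 25RA it was 2.84 at Hoxa2, 3.65 at the Hoxa4 site and 8.26 at Hoxa7. In all 3 libraries the peaks nearer the posterior genes had the higher broad level, except between the first pair of 10RA (2.59 and 2.33) and between its pair of peaks at Hoxa4 (3.67 and 3.55).

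Over the posterior genes the broad level stayed between 10.5 and 13.3 with 1-590, 7.60 and 10.1 with 10RA, and 6.24 and 8.28 with 25RA, and it was 8.67 and 7.67 at the 2 vector peaks. The Hoxa7 peaks of 1-590 and 25RA, and the 1-590 peak at the Hoxa3 start (11.5), were thus within the posterior range of their own library. The peaks from Hoxa2 to the Hoxa4 site were all below that range. So were the 10RA peaks at Hoxa6 (6.09) and at the Hoxa3 start (7.50). For comparison, the median broad level at promoter peaks of all genes was 2.64 with 1-590, 2.32 with 10RA and 2.37 with 25RA, and 90% of them were below 5.51, 5.17 and 4.81. Peaks were also fewer over the anterior genes: 0.664 per 10 kb against 2.38 over the posterior genes with 1-590, 0.996 against 1.85 with 10RA, and 0.664 against 2.12 with 25RA, while the genome average was 0.119, 0.104 and 0.124.

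**Figure D4:**
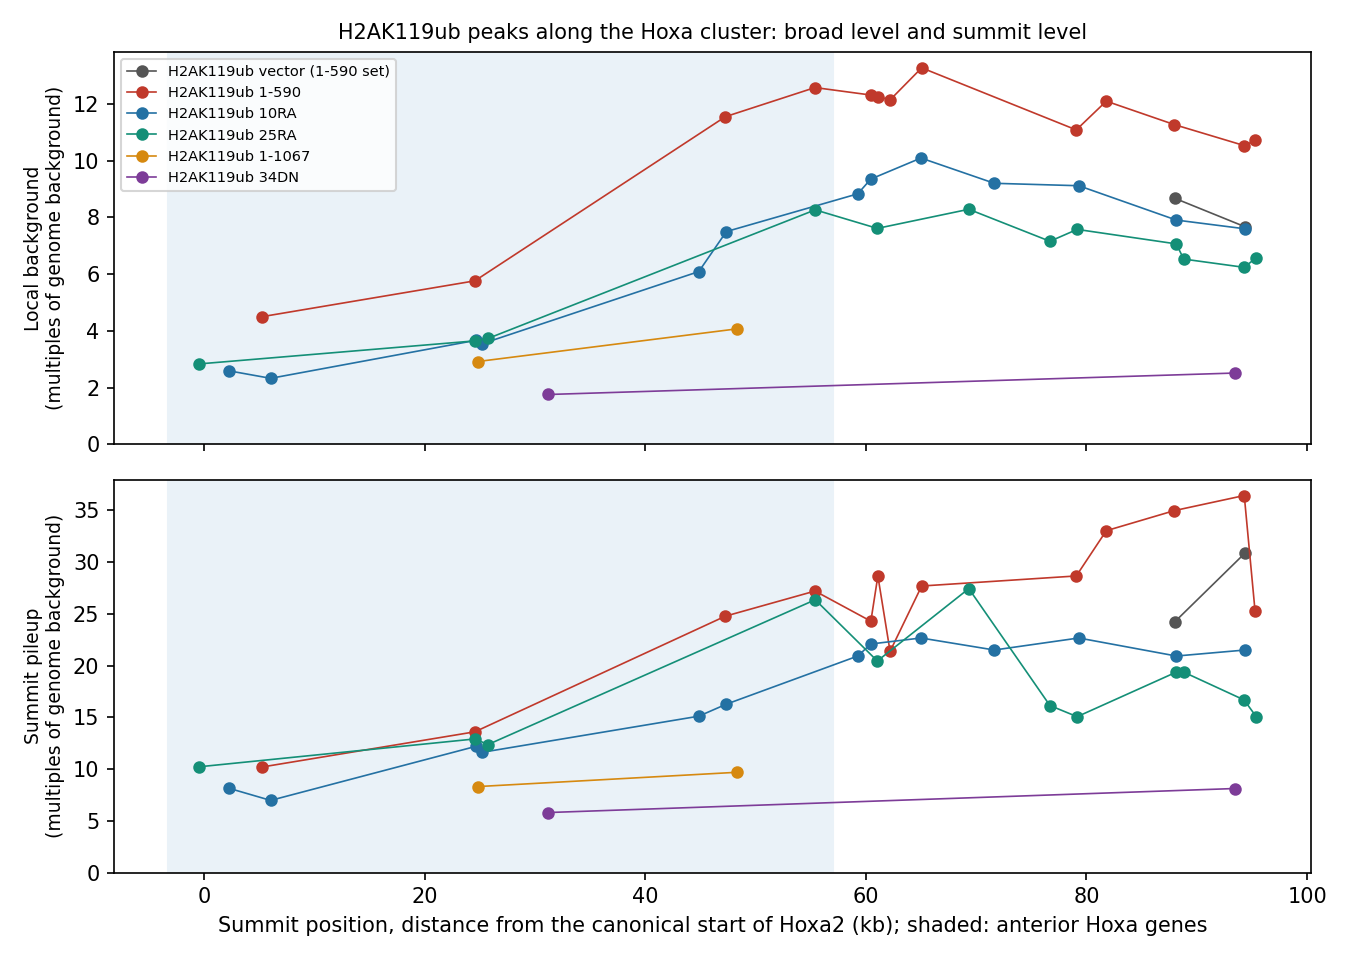
Broad level (upper panel, local background) and summit level (lower panel, summit pileup) of each H2AK119ub peak, each divided by the genome background of its library, against the summit's distance in kb from the Hoxa2 start, with points of a library joined and the anterior genes shaded. In the upper panel 1-590 runs from 4.50 to 12.6 across the anterior genes, above 10RA and 25RA at the sites they share; whether a control library entered this background is not stated.

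Where 2 libraries listed a peak at the same place, levels could be set side by side. At the Hoxa4 site the broad level was 5.76 with 1-590, 3.67 with 10RA and 3.65 with 25RA. The ratio of 1-590 to 10RA was 1.57 there and 1.54 at the Hoxa3 start, where the median over 12108 shared places was 1.13, and 96.6% and 95.7% of those places had a lower ratio. The ratio of 1-590 to 25RA was 1.58 at the Hoxa4 site and 1.52 at Hoxa7, where the median over 14096 shared places was 1.08, and 98.2% and 97.1% were lower. Among shared places with a broad level in 10RA within 0.8 to 1.25 times that of the site, a comparison chosen after these values were seen, 99.5% of 2635 and 98.6% of 728 had a lower ratio of 1-590 to 10RA. For 25RA the same shares were 99.2% of 3339 and 89.2% of 400. Between the mutant forms the ratio of 10RA to 25RA was 1.01 at the Hoxa4 site and 0.951 at the neighbouring Hoxa4 peak, near the median of 0.966 over 11455 places.

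The summit levels were closer to each other than the broad levels at the Hoxa4 and Hoxa7 sites. At the Hoxa4 site they were 13.6, 12.2 and 12.9 multiples of genome background with 1-590, 10RA and 25RA, a ratio of 1.11 to 10RA and 1.05 to 25RA. At Hoxa7 they were 27.2 with 1-590 and 26.4 with 25RA, a ratio of 1.03. The Hoxa3 start was the exception, with 24.8 against 16.3 and a ratio of 1.52. Over all shared places the median summit ratio was 1.18 for 1-590 to 10RA and 1.15 for 1-590 to 25RA. For 10RA, 43.4% of places had a lower summit ratio than the Hoxa4 site and 75.6% than the Hoxa3 start. For 25RA these shares were 38.5% for the Hoxa4 site and 35.8% for Hoxa7. A summit on a higher background needs more fragments to be listed: at the Hoxa4 site 24 were needed with 1-590, 15 with 10RA and 16 with 25RA. The broad level over the posterior genes was also higher with 1-590. Ratios of 1-590 to 10RA were 1.22 to 1.43 at 5 shared places, above 66.9% to 90.3% of all shared places. Ratios of 1-590 to 25RA were 1.46 to 1.69 at 6 pairs of peaks, above 95.7% to 99.3%. In 2 of these pairs the 25RA peak was the same. Against vector, which had no anterior peak and hence no value there, the 2 shared posterior places had ratios of vector to 1-590 of 0.769 and 0.729, where the median over 10961 places was 1.12.

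The question in the 1-1067 set was how the charge-neutralized forms differ from 1-1067. Promoter peaks were listed with 1-1067 at 2 of the 6, Hoxa3 and Hoxa4, beside 9.21% of all promoters, and with vector, 34DN and 36EQ at 0, beside 7.44%, 6.96% and 8.52%. The 2 listings of this set became 1 with promoters of 1 kb or by the summit alone, and 5 with promoters of 5 kb. A peak with 1-1067 and none in the other library was found at 6.51% of all promoters against vector, 6.53% against 34DN and 5.96% against 36EQ. The reverse was found at 0 of the 6 in each case, and at 4.74%, 4.27% and 5.27% of all promoters. In gene bodies, 1-1067 marked 2 of the 6 and 34DN 1 (Hoxa3), against 15.5% and 12.7% of all genes, and vector and 36EQ marked 0, against 14% and 15.1%. The 1-1067 library was the shallowest of its set. All 3 anterior peaks of this set had a q above 0.05, so at that threshold 0 of the 6 genes were listed, beside 3.0% of all promoters with vector, 4.38% with 1-1067, 3.43% with 34DN and 4.65% with 36EQ. The broad level was 2.92 at the Hoxa4 site and 4.07 at the Hoxa3 start with 1-1067, and 1.76 at the 34DN peak. At the Hoxa4 site the 1-590 set had 3.65 to 5.76. Each set has its own matched vector control per the titles, and the sets were not compared further.

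In the ChIP lists neither BAP1 nor ASXL1 had a peak in the promoter or body of any of the 6 genes. With BAP1, 0.363% of all promoters and 4.77% of all gene bodies were listed with 1-590, and 0.552% and 7.41% with 10RA. With ASXL1, these shares were 1.06% and 11% with 1-590, and 0.455% and 6.45% with 10RA. The nearest was an ASXL1 peak with 1-590, at chr6:52215112-52215330 and 20627 bp from the Hoxa7 start. The nearest BAP1 peak, also with 1-590, was 38756 bp from it. No binding was detectable here at this depth and threshold.

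The genes around and beyond the 6 were read from lists chosen by name. Beside the counts below, 40.5% of all promoters were listed with vector, 55.2% with 1-590, 41.3% with 10RA and 47.8% with 25RA. Whether any list departs from these shares was not tested. Of the 4 posterior Hoxa genes, 1 had a promoter peak with vector (Hoxa13), 3 with 1-590 (Hoxa9, Hoxa11 and Hoxa13) and 4 with 10RA and with 25RA. Hoxa10, like Hoxa4, was thus listed with the mutant forms and not with 1-590. Of all promoters, 4.53% had a peak with 10RA and none with 1-590, and 5.53% with 25RA and none with 1-590. Near Hoxa4, 1-590 did have a peak, 2191 bp from the start and so outside the promoter window. Over the posterior genes 1-590 listed 9 peaks, 10RA 7 and 25RA 8. Of the 11 paralogues of groups 2 to 7 in the other Hox clusters, 7 were listed with vector, 7 with 1-590, 8 with 10RA and 8 with 25RA. Their median broad levels were 8.0, 9.17, 7.28 and 6.44. Those listed with vector were Hoxb2, Hoxb5, Hoxb6, Hoxb7, Hoxc4, Hoxc5 and Hoxd3. Of the 6 genes that flank the cluster, 3 were listed with vector, 4 with 1-590, 2 with 10RA and 5 with 25RA. The HOX cofactors of the MEIS, PBX and PKNOX families, which bind DNA together with HOX proteins, were listed at 5, 7, 4 and 5 of 9. Known regulators of Hoxa transcription, such as Kmt2a, Dot1l and the Cdx genes, were listed at 4, 7, 5 and 5 of 10. Kmt2a, Psip1 and Dot1l were listed in all 4 libraries.

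Genes outside the Hox clusters with the most similar promoter pattern were found for the 2 genes listed in 3 libraries, by Euclidean distance of log2 summit level over the 8 H2AK119ub libraries. For Hoxa3 they were Ess2 (distance 0.43), Ahnak2 (0.46) and Cbfa2t3 (0.53), among 29 genes listed in the same 3 libraries. For Hoxa4 they were Kcnip2 (0.48), Nckap5l (0.53) and Podnl1 (0.55), among 9.

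Sequence at the sites was compared with all peaks of 6 H2AK119ub libraries, the 1-590 set, 1-1067 and 34DN. In 301 bases around the summit, the 17 anterior peaks held a median of 9 CpGs, with a range of 2 to 29, against 6 over 126327 peaks. Among the 17, 9 touched an exon of one of the 6 genes. The same noncoding gene, Gm28308, was overlapped by 15, some of which overlapped other noncoding genes too. No share over all peaks was worked out for these counts. The 17 peaks lie at 11 separate sites, so counts over their summits can include the same bases more than once. Whether such counts depart from the shares of all peaks was not tested. A PBX-HOX motif, TGATTNAT on either strand, was found in the 300-base promoter of Hoxa2, where 2.74% of promoters hold it, and at 1 of the 17 summits, the Hoxa2 peak of 25RA, against 1.67% of all. The short element of retinoic acid receptors, AGGTCA, was found in the promoter of Hoxa5 (15.1% of promoters) and at 7 of the 17 summits (18.3% of all), the printed Hoxa6 stretch among them. The paired element, which is that motif repeated after any 5 bases and so always holds it, and the CTCF core were found in 0 of the 6 promoters and at 0 of the 17 summits. They occur in 0.0046% and 0.253% of all promoters.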

How the data were processed

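Peak lists of 12 libraries were used, grouped by the sample titles. The members and gene lists were chosen with earlier results of these data known, by name and not by their values; the genes named are the 6 members, the fixed lists and the 3 most alike genes. A gene of these lists is not reported here. The submitters' processing notes name mm39 and MACS3 3.0.3, with Bowtie2 2.5.4, fastp 0.24.0, Picard and SAMtools. The use of a control library and pooling are not given in the sources used here. CUT&RUN was normalized to an E. coli spike-in, per the labels.

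Each deposited peak has a score, the whole part of 10 times -log10 p as the authors' caller wrote it. The deposited fold is a ratio of summit pileup plus 1 to local background plus 1. The authors' -log10 p and -log10 q values were made within each library, and peaks are listed to p of 0.001, without regard to q. From fold and p, whole pileups and backgrounds were recovered for 100% of the 159554 peaks used (chromosomes 1 to 19, X and Y), within 0.002 in -log10 p. These fragments show no multiplication by a spike-in factor; subsampling before the call cannot be seen. Depth was matched by binomial thinning, computed exactly.

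GENCODE vM39 gave 21738 protein-coding genes (GRCm39, the assembly that mm39 names, counted from 1), and overlap was 1 base or more. Sites are merged peaks. Python 3.11.15, numpy 2.4.6, pandas 2.3.3, scipy 1.17.1 and bedtools 2.31.1 were used, and recovery and overlap were tested on simulated data. The alternatives were promoters of 1 and 5 kb, the summit alone, q of 0.05 or less, all coding starts, and matched depth.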

Additional observations from a re-analysis of the deposited data

How the results depend on the processing

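Of 54 values under 6 alternatives (9 results each), 41 stayed within 1.5 times the reported count and 13 moved. Promoters of 5 kb raised the members listed with 1-590 from 1 to 4 and, against vector, those listed in only one library from 1 to 4; all coding starts raised both to 2, by adding Hoxa7, and matched depth lowered both to an expected 0.606. With 10RA matched depth lowered 3 to an expected 1.61. Promoters of 1 kb lowered 25RA from 2 to 1 and the members listed in only one of 10RA and 1-590 from 2 to 1. The 2 listings of the 1-1067 set became 1 with 1 kb, 5 with 5 kb, 1 by the summit alone and 0 at q of 0.05 or less. Vector in the 1-590 set and the ChIP libraries stayed at 0 under each alternative that was run. Only promoters of 5 kb and all coding starts could have raised a count of 0. The other alternatives could not change it, and these zeros are among the 41. No paired analysis was possible because each condition has 1 library and no model was fitted. In the 1-590 set vector has the lowest depth, and peaks on a high local background need more fragments to be listed, so a missing peak is not a measured low level.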
